A study of Drosophila melanogaster with 6 samples.

Results

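The histone genes of Drosophila melanogaster were followed through 6 eCLIP libraries, which sequence the RNA that copurifies with a protein. The members were 164 annotated features of 133537 in all: the exons, mRNAs and introns of 111 replicative gene copies and 5 variant genes (His2Av, His3.3A, His3.3B, His4r and BigH1), and the features of 3 histone pseudogenes. The rule names them by gene symbol and feature class and uses no measured value, but the set was proposed with earlier results of these data known. Exon and mRNA features were summed per replicative type (His1, His2A, His2B, His3, His4) and per variant gene, and introns were kept apart, which gave 17 items of 23672. Of the 17 items, 10 passed a minimum mean of 10 reads over the crosslinked libraries: the 5 replicative types, the exons of His2Av, His3.3A, His3.3B and His4r, and the intron of His3.3B.

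All libraries came from OSS cells, a cultured line of Drosophila ovarian somatic sheath cells, in which Asterix (also called Gtsf1), a protein of the piRNA pathway, was expressed from its own promoter with a GFP-FRT-Precission-V5-3xFLAG-P2A tag at the C-terminus. Cells were irradiated with UV light at 254 nm or left without crosslinking, RNase I was added to the lysates, and RNA was either recovered on anti-FLAG M2 beads (IP) or taken as input. There were 2 crosslinked input, 2 crosslinked IP, 1 non-crosslinked input and 1 non-crosslinked IP libraries, and cells without the tagged protein were not analysed here. The labels do not say whether replicates came from separate cultures, so p-values measure only the spread between these libraries, and there were no replicates without crosslinking.

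Replicative histone genes lie in a tandem array in which units of H1, H2A, H2B, H3 and H4 genes are repeated, and they are transcribed mainly in S phase. Their transcripts lack introns and normally end in a conserved stem-loop in place of a poly(A) tail, a 3' end made with the U7 snRNP and the stem-loop binding protein. Variant genes such as those for H3.3 and H2Av lie outside the array, are expressed outside S phase as well and give mRNAs with poly(A) tails. Their proteins mark active chromatin, DNA damage sites or, for BigH1, the chromatin of the early embryo and germline.

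The crosslinked inputs held 15992638 and 11464862 reads, the crosslinked IPs 9948299 and 8259354, the non-crosslinked input 4194751 and its IP 2619716. Of the annotated reads, rRNA took 73.2% to 79.6% in the crosslinked libraries, and 84.2% in the non-crosslinked input against 85.8% in its IP. A count of 3 reads, taken as the floor, was worth 0.191 to 1.31 RPM, which stands here for reads scaled to 1000000 annotated reads. The transcripts of tj and zfh1, which mark ovarian somatic cells, were detected in every library. Fas3, another such marker, was low at 1.31 to 2.98 RPM, with 3 reads, the floor, in the non-crosslinked IP. The germline genes vas, aub, AGO3, nos, osk and bam were at 1.17 RPM or less. The exons of piwi stood at 424 RPM in the non-crosslinked input and between 52.8 and 112 RPM in the other libraries, so that library stood apart for this gene.

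The 111 replicative copies comprised 23 His1, 20 His2A, 23 His2B, 23 His3 and 22 His4 genes. In the RefSeq annotation of the Release 6 assembly they lie on chromosome 2L between 21416953 and 21541681. On that assembly His3.3A lies at 2L:5055058-5056149, His3.3B at X:9152523-9156669, His2Av at 3R:26866929-26869220, His4r at 3R:14625755-14626614 and BigH1 at 3R:14663450-14664822. The deposited files give features by name only, with no coordinates.

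Histone mRNAs were a small part of each library. Reads of replicative genes outnumbered those of variant genes by more in crosslinked IP than in crosslinked input. This came mainly through fewer reads of His3.3B, the histone item with most reads in the input. The replicative share of annotated reads was 0.0199% ± 0.00153 (SD, n = 2) in crosslinked input against 0.0225% ± 0.00194 in crosslinked IP. The variant share was 0.0129% ± 3.70e-05 and 0.00774% ± 5.96e-05. In the non-crosslinked pair, replicative reads were 0.00949% of the input and 0.0106% of the IP, and variant reads were 0.00514% and 0.00606%. Between the inputs, which are bulk libraries, fewer cells that express a gene and less RNA per cell cannot be told apart. An IP set against input compares RNA recovered on the beads with RNA of the lysate. With rRNA left out of the total, the replicative share was 0.0935% ± 0.0128 in crosslinked input against 0.0891% ± 0.0145 in crosslinked IP, so the direction of the replicative difference depended on the total used, and the variant share was 0.0607% ± 0.00351 and 0.0306% ± 0.00258.

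A ratio of replicative to variant reads taken within a library does not depend on its total. It was 1.62 and 1.45 in the crosslinked inputs, 3.07 and 2.75 in the crosslinked IPs, and 1.85 in the non-crosslinked input against 1.74 in its IP. Both crosslinked IPs lay above all other libraries, and the non-crosslinked pair lay between the crosslinked groups. The crosslinked IPs were 1.89-fold above the crosslinked inputs (log2 0.92 ± 0.16, SD from both groups, n = 2 each), and the exact two-sided permutation test gave p = 0.333, the smallest value that 2 against 2 libraries allow. The non-crosslinked IP was at 0.944 of its input, with a 95% counting interval of 0.721 to 1.24. His3.3B carried most of this difference, since without it the ratio was 9.16 and 9.60 in crosslinked input against 12.8 and 10.2 in crosslinked IP, a 1.22-fold difference. In the non-crosslinked pair that ratio went the other way, from 12.7 in input to 5.98 in IP (0.469 of the input, counting interval 0.285 to 0.773). The leaving-out of His3.3B was chosen after its values were seen. With His4r left out, whose reads may be shared with the His4 copies, the difference was 1.96-fold.

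**Figure D1:**
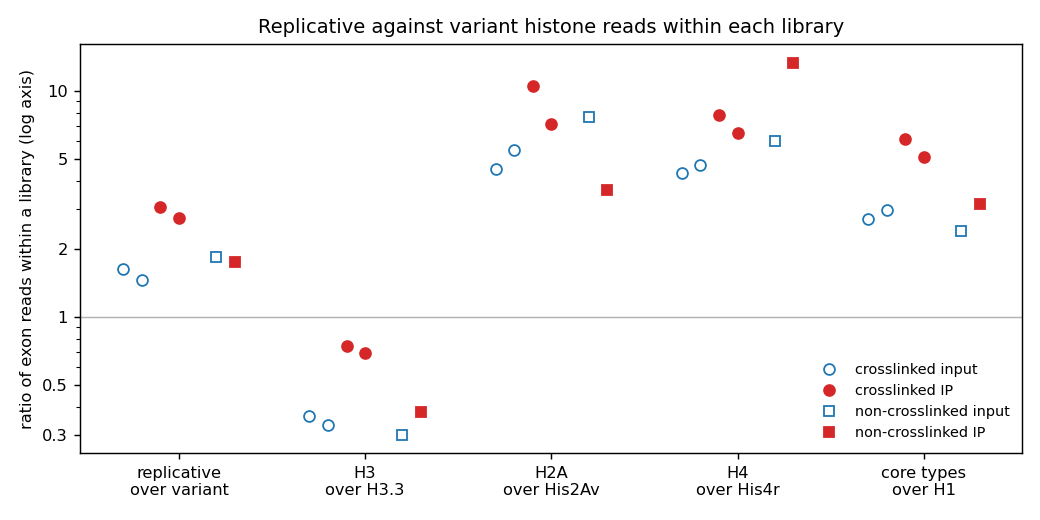
Ratios of exon and mRNA reads within each library, on a log axis, with 1 point per library: all replicative over all variant genes, His3 over His3.3A and His3.3B together, His2A over His2Av, His4 over His4r, and the core types over His1. In the first 2 columns the crosslinked IPs sit at 2.75 to 3.07 and at 0.693 to 0.740, above the crosslinked inputs at 1.45 to 1.62 and at 0.334 to 0.366.

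Set type by type against the variant of the same histone, the ratios went the same way in crosslinked libraries. His3 over both H3.3 genes was 0.366 and 0.334 in crosslinked input against 0.740 and 0.693 in crosslinked IP, a 2.05-fold difference, with 0.301 and 0.379 in the non-crosslinked input and IP. The H3.3 sum is mostly His3.3B, whose mean RPM in crosslinked IP was 0.533 of that in input. His3 and His3.3A stood alike, at 1.16 and 1.21 of their input means, so this difference rested on His3.3B. His2A over His2Av was 4.52 and 5.45 in crosslinked input against 10.5 and 7.14 in crosslinked IP, but it was 7.64 in the non-crosslinked input against 3.64 in its IP, where His2Av had 11 and 14 reads. His4 over His4r was 4.34 and 4.69 in crosslinked input against 7.82 and 6.52 in crosslinked IP, a 1.58-fold difference. Without crosslinking it was 6 in input and 13.3 in IP, a 2.22-fold difference with a counting interval of 0.553 to 8.94. In each of these 3 pairs the crosslinked IP and input libraries did not overlap, and the exact permutation p was 0.333, the smallest possible.

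Of the replicative types, His4 rose and His1 fell in crosslinked IP against crosslinked input, while His2A, His2B and His3 did not pass the test. For comparison, 21.6% of the 8571 items tested were called higher and 18.9% lower by edgeR's quasi-likelihood test at an adjusted p of 0.05, and among the 5776 exon items 6.46% were called higher and 24.3% lower. The median log2 ratio was 0.00 over all items and -0.21 over exon items. Both crosslinked IPs lay above both inputs in 36.6% of all items and below them in 33.0%.

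His1 encodes the linker histone, which binds DNA between nucleosomes. It had 56.6 and 47.5 RPM in the crosslinked inputs, 33.3 and 34.5 RPM in the crosslinked IPs, and 27.8 RPM in the non-crosslinked input against 25.4 RPM in its IP. The crosslinked inputs were higher than every other library, and the groups did not overlap. The log2 ratio of crosslinked IP to input was -0.66 ± 0.14 (SE), with an edgeR adjusted p of 0.0010.

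His4, the core histone H4 and the partner of H3 in the tetramer, went the other way. Its values were 28.5 and 25.5 RPM in crosslinked input, 50.8 and 40.3 RPM in crosslinked IP, and 11.9 RPM in the non-crosslinked input against 17.5 RPM in its IP. The IP was above its input with and without crosslinking, and the crosslinked groups did not overlap. Without crosslinking the fold was 1.47, with a counting interval of 0.941 to 2.28 that includes no difference. The log2 ratio in the crosslinked libraries was 0.72 ± 0.15 (edgeR adjusted p = 0.00081). The call rested partly on crosslinked IP replicate 1, without which the ratio was 0.51 and the edgeR adjusted p 0.0525.

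The other core types, His2A and His2B, which pair with each other in the nucleosome, and His3 lay higher in both crosslinked IPs than in both inputs, by less than His4. His2A had 48.4 and 46.2 RPM in crosslinked input against 60.4 and 52.4 RPM in crosslinked IP, a log2 ratio of 0.22 ± 0.14 (edgeR adjusted p = 0.219). His2B had 35.0 and 30.3 RPM in crosslinked input against 45.2 and 39.8 RPM in crosslinked IP, a log2 ratio of 0.34 ± 0.14 (edgeR adjusted p = 0.0562). His3 had 41.0 and 38.6 RPM in crosslinked input against 48.5 and 43.9 RPM in crosslinked IP, a log2 ratio of 0.18 ± 0.13 (edgeR adjusted p = 0.301). None of the 3 passed the test, although the groups did not overlap. His2B passed it when TMM scaling was left out, with an edgeR adjusted p of 0.0451, and without crosslinked input replicate 1, with 0.0330. In the non-crosslinked input and IP, His2A had 20.9 and 22.3 RPM, His2B 20.4 and 20.1 RPM and His3 13.9 and 20.1 RPM, all below the crosslinked libraries.

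**Figure D2:**
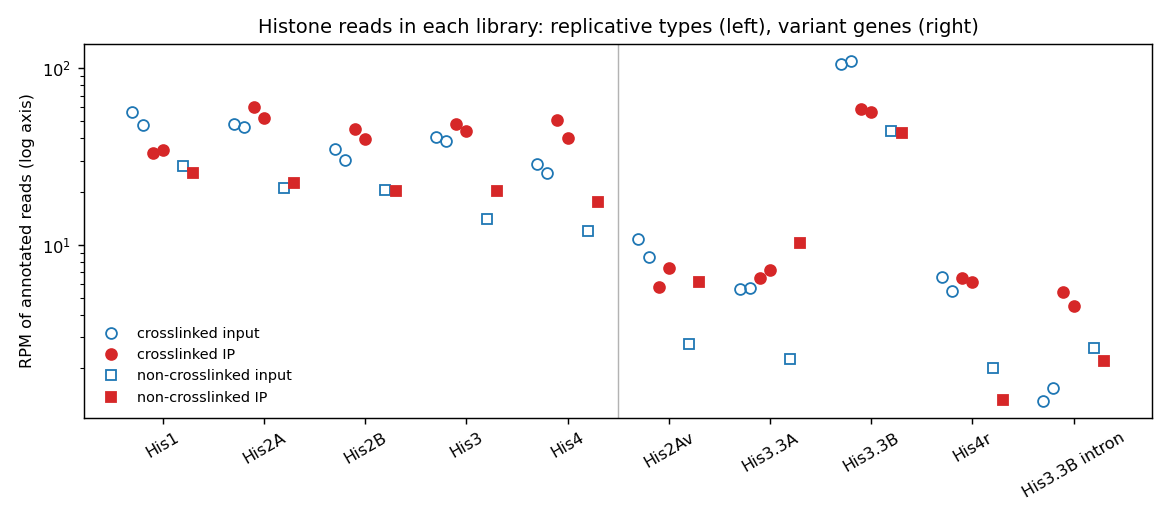
RPM of annotated reads (log axis) of each histone item that passed the count minimum, with 1 point per library, open for input and filled for IP, circles for crosslinked and squares for non-crosslinked. His3.3B has 106 and 110 RPM in crosslinked input and 56.2 to 59.1 RPM in crosslinked IP, while its intron goes from 1.31 and 1.53 RPM to 4.51 and 5.43 RPM.

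The make-up of the replicative reads by type shows the same pair of types within each library, free of its total. His1 made up 27.0% and 25.2% of them in crosslinked input, 14.0% and 16.4% in crosslinked IP, and 29.3% in the non-crosslinked input against 24.1% in its IP. His4 made up 13.6% in each crosslinked input, 21.3% and 19.1% in crosslinked IP, and 12.6% in the non-crosslinked input against 16.6% in its IP. The mean share of His1 was 10.9 percentage points lower in crosslinked IP than in input, and that of His4 was 6.62 points higher, each with an exact permutation p of 0.333, the smallest possible. The 95% Wilson intervals of the crosslinked IPs ran from 12.6% to 18.2% for His1, below those of the crosslinked inputs, from 23.4% to 28.6%. The 4 core types together over His1 gave ratios of 2.70 and 2.96 in crosslinked input, 6.15 and 5.11 in crosslinked IP, and 2.41 in the non-crosslinked input against 3.16 in its IP. The fold of the non-crosslinked IP over its input was 1.31, with a counting interval of 0.905 to 1.89 that includes no difference, against 1.98 in the crosslinked libraries.

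**Figure D3:**
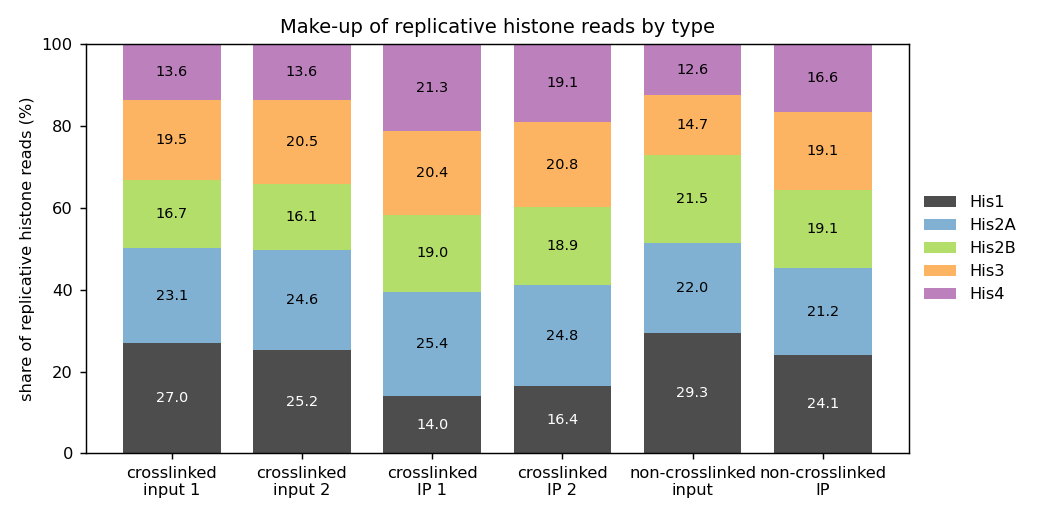
Share of replicative histone reads (percent, stacked to 100) taken by each type in each library. The His1 part shrinks from 25.2 to 27.0% in crosslinked input to 14.0 to 16.4% in crosslinked IP, and the His4 part grows from 13.6% to 19.1 to 21.3%.

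Per length, the order of the types by their means changed from crosslinked input to IP only in that His4 passed His3. Divided by the median RefSeq gene length of each type (1023 bases for His1, 493 for His2A, 595 for His2B, 529 for His3 and 413 for His4), His2A stood highest in crosslinked input at 96.0 ± 3.17 RPM per kb (SD, n = 2). It was followed by His3 at 75.2 ± 3.11, His4 at 65.4 ± 5.14, His2B at 54.9 ± 5.58 and His1 at 50.9 ± 6.31 RPM per kb. His2B and His1 lay within their spread of each other. In crosslinked IP, His2A at 114 ± 11.5 and His4 at 110 ± 17.9 RPM per kb lay within their spread. His3 at 87.4 ± 6.15 and His2B at 71.4 ± 6.45 came next, and His1 was lowest at 33.1 ± 0.835 RPM per kb. The spreads of His4 and His3 met too. Without crosslinking His4 was above His3 in the input already, at 28.9 against 26.3 RPM per kb, and in the IP at 42.4 against 38.1.

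Single copies within the array told little apart, because near-identical copies share reads. The estimated counts fell into 11 distinct patterns among the 23 His1 copies, 7 among 20 His2A, 7 among 23 His2B, 2 among 23 His3, of which 1 pattern covered 18 copies, and 6 among 22 His4 copies. Copies with the same pattern are not separate measurements. All 111 copies passed the count minimum as single features. Of 17778 single features tested with edgeR, 22.2% were called higher and 19.7% lower in crosslinked IP. Among the copies, 9 of 22 His4 genes were called higher and 2 of 23 His1 genes lower, and no copy of His2A, His2B or His3 was called. The His4 calls repeat fitted log2 ratios of 0.89 (edgeR adjusted p = 0.0395) or 0.83 (edgeR adjusted p = 0.0487). Both His1 calls have the same result (-0.71, edgeR adjusted p = 0.0348). The His4 copies with most reads, such as His4:CG33909, were not called (0.73, edgeR adjusted p = 0.0610).

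Every His1 copy had a negative fitted log2 ratio, from -0.71 to -0.50, and every His4 copy a positive one, from 0.57 to 0.89. The highest mean of a His1 copy over the 6 libraries was shared by 2 copies with the same counts, of which His1:CG33813 had 3.86 and 2.84 RPM in crosslinked input against 1.97 and 2.13 RPM in crosslinked IP. The lowest, His1:CG33834, had 1.85 and 1.60 RPM in crosslinked input against 1.16 and 1.27 RPM in crosslinked IP. Both were lower in both IPs than in both inputs, as was the His1 sum.

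The highest mean of a His4 copy was shared by 9 copies with the same counts, of which His4:CG33909 had 1.46 and 1.29 RPM in crosslinked input against 2.51 and 1.99 RPM in crosslinked IP. The lowest, His4:CG33869, had 1.11 and 0.982 RPM in crosslinked input against 2.09 and 1.65 RPM in crosslinked IP. Copies of a type differed less among themselves than His1 differed from His4 in their ratio of IP to input. Since copies of a type share reads, their likeness follows in part from that sharing and adds nothing to the sums. Means over the crosslinked inputs spanned 1.94 to 2.45 RPM for His2A copies, 1.32 to 1.45 RPM for His2B copies and 1.72 to 1.78 RPM for His3 copies. By the mean over all 6 libraries, the highest His2A value was that of His2A:CG33838 at 2.18 RPM, and the lowest that of His2A:CG33853 at 1.82 RPM, each shared by 3 copies. For His2B the highest was His2B:CG33876 at 1.42 RPM, shared by 3 copies, and the lowest His2B:CG17949 at 1.26 RPM. For His3 there were only 2 values, 1.60 RPM in 5 copies with His3:CG33830 and 1.46 RPM in 18 copies with His3:CG31613.

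**Figure D4:**
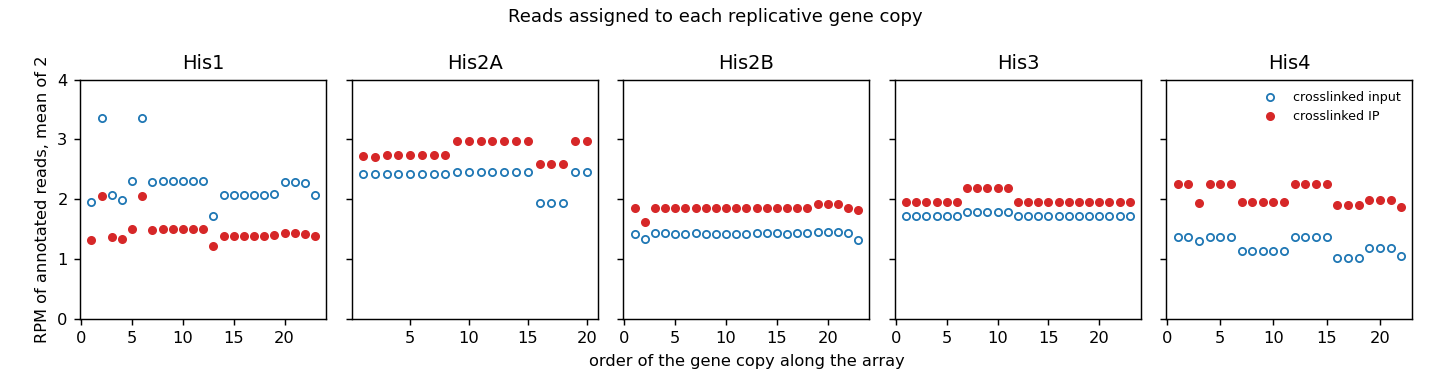
RPM of annotated reads of each replicative gene copy, mean of the 2 crosslinked inputs (open) and of the 2 crosslinked IPs (filled), in the order of the copies along the array. Runs of equal values are copies with the same estimated counts. His1 copies lie lower in IP than in input and His4 copies higher.

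The variant genes did not move together. His3.3B and His2Av fell in crosslinked IP, while His3.3A and His4r did not pass the test. His3.3A and His3.3B both encode the replacement histone H3.3, which is deposited outside S phase as well. His3.3B had 106 and 110 RPM in crosslinked input, 59.1 and 56.2 RPM in crosslinked IP, and 44.0 RPM in the non-crosslinked input against 42.9 RPM in its IP. The crosslinked inputs were far above the other libraries, and the non-crosslinked pair was level. The log2 ratio in the crosslinked libraries was -0.94 ± 0.14 (edgeR adjusted p = 5.17e-05).

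His3.3A had 5.61 and 5.68 RPM in crosslinked input, 6.46 and 7.21 RPM in crosslinked IP, and 2.24 RPM in the non-crosslinked input against 10.2 RPM in its IP. The non-crosslinked IP was the highest library and its input the lowest, from 23 reads in the IP and 9 in the input. The log2 ratio in the crosslinked libraries was 0.24 ± 0.17 (edgeR adjusted p = 0.294). His3.3B over His3.3A, 2 genes for the same protein, gave 18.9 and 19.4 in crosslinked input, 9.15 and 7.79 in crosslinked IP, and 19.7 in the non-crosslinked input against 4.20 in its IP. This ratio was lower in IP than in input with and without crosslinking, at 0.441 and 0.214 of the input value, the latter with a counting interval of 0.0952 to 0.479.

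His2Av, the variant that serves in flies as both H2A.Z and H2A.X, had 10.7 and 8.47 RPM in crosslinked input against 5.75 and 7.34 RPM in crosslinked IP. It had 2.73 RPM in the non-crosslinked input against 6.13 RPM in its IP. The crosslinked groups did not overlap, and the log2 ratio was -0.62 ± 0.17 (edgeR adjusted p = 0.00922). The call was lost with DESeq2 (adjusted p = 0.176), without crosslinked input replicate 1 (edgeR adjusted p = 0.0821) and without crosslinked IP replicate 1 (edgeR adjusted p = 0.156).

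His4r encodes an H4 protein from a gene outside the array. It had 6.57 and 5.44 RPM in crosslinked input, 6.49 and 6.18 RPM in crosslinked IP, and 1.99 RPM in the non-crosslinked input against 1.31 RPM, 3 reads, in its IP. The crosslinked groups overlapped, and the log2 ratio was 0.03 ± 0.18 (edgeR adjusted p = 0.922). Its sign turned with the filter and with the libraries left out, so it has no direction here. The mRNA of BigH1, the germline and embryonic linker histone, was listed with 2 reads in the non-crosslinked input and none in the other 5 libraries, where the floor of 3 reads allows up to 0.191 to 1.31 RPM. The features of the 3 pseudogenes, CR31615, CR31616 and CR33867, held between 0 and 5 reads in a library.

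The intron of His3.3B went against its exons. It had 1.31 and 1.53 RPM in crosslinked input, 5.43 and 4.51 RPM in crosslinked IP, and 2.61 RPM in the non-crosslinked input against 2.19 RPM in its IP. Both crosslinked IPs were above all other libraries, and the log2 ratio was 1.82 ± 0.27 (edgeR adjusted p = 3.80e-05). Of the 1897 intron items tested, 55.7% were called higher and 2.27% lower, and their median was 0.68, so a higher intron was common. Of all His3.3B reads, introns took 1.22% and 1.38% in crosslinked input, 8.41% and 7.43% in crosslinked IP, and 5.60% in the non-crosslinked input against 4.85% in its IP. The introns of His2Av and His3.3A held 4 reads or fewer in each library and were not tested.

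The exons of His3.3B are listed as segments by isoform, and the fitted log2 ratios of the 4 tested segments ranged from -1.42 to 0.75. The exon of isoforms RA, RC and RB had 43.3 and 44.9 RPM in crosslinked input against 16.0 and 16.7 RPM in crosslinked IP, a log2 ratio of -1.42 ± 0.13 (edgeR adjusted p = 2.65e-05). The exon listed for isoform RE had 53.4 and 56.9 RPM in crosslinked input against 32.6 and 29.9 RPM in crosslinked IP, a log2 ratio of -0.81 ± 0.14 (edgeR adjusted p = 0.00142). The exon shared by all 4 isoforms had 5.61 and 4.67 RPM in crosslinked input against 4.68 and 5.45 RPM in crosslinked IP, a log2 ratio of -0.04 ± 0.17 (edgeR adjusted p = 0.878). The exon of isoforms RA and RE had 1.21 and 0.714 RPM in crosslinked input against 2.02 and 1.29 RPM in crosslinked IP, a log2 ratio of 0.75 ± 0.36 (edgeR adjusted p = 0.118). The groups overlapped for the shared exon and did not overlap for the RA, RC and RB exon, the RE exon or the RA and RE exon. The RA, RC and RB exon over the RE exon gave 0.810 and 0.788 in crosslinked input, 0.491 and 0.560 in crosslinked IP, and 0.799 in the non-crosslinked input against 0.618 in its IP. The exact permutation p of that ratio was 0.333, the smallest possible, and reads may be shared between overlapping exons. Among the introns of this gene, the one of RA and RE passed the minimum, with 1.23 and 1.27 RPM in crosslinked input against 4.50 and 3.93 RPM in crosslinked IP, and a log2 ratio of 1.77 ± 0.23 (edgeR adjusted p = 0.000227).

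The authors' deposited table gives a ratio per feature over the 6 libraries, whose formula is not given in the sources used here. In the authors' deposited table the median over copies was 1.77 for His4, 1.39 for His2B, 1.28 for His2A, 1.11 for His3 and 0.598 for His1. The median over listed exons in the authors' deposited table was 0.482 for His3.3B, 0.583 for His2Av, 1.02 for His3.3A and 1.19 for His4r. The 2 listed introns of His3.3B had ratios of 4.06 and 13.1 in the authors' deposited table. For all features, the median in the authors' deposited table was 0.990 for exons and 2.06 for introns.

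The non-crosslinked pair serves as background for the pull-down. With TMM scaling all 5 replicative types lay above 0 in the non-crosslinked IP over input, at log2 0.41 for His1, 0.63 for His2A, 0.52 for His2B, 1.07 for His3 and 1.08 for His4. Among the variants the values were 1.64 for His2Av, 2.62 for His3.3A, 0.50 for His3.3B and -0.05 for His4r, and the intron of His3.3B had 0.34. His3, His4, His2Av and His3.3A were past 2-fold, as were 18.6% of all items, with 23.3% past 2-fold lower. With library size alone as the scale, the median of all items moved from -0.08 to -0.55, His1, His2B and His3.3B turned to -0.13, -0.02 and -0.04, and only His2Av at 1.10 and His3.3A at 2.06 stayed past 2-fold. The direction of the pair for His1, His2B, His3.3B and the His3.3B intron thus depended on the scaling.

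**Figure D5:**
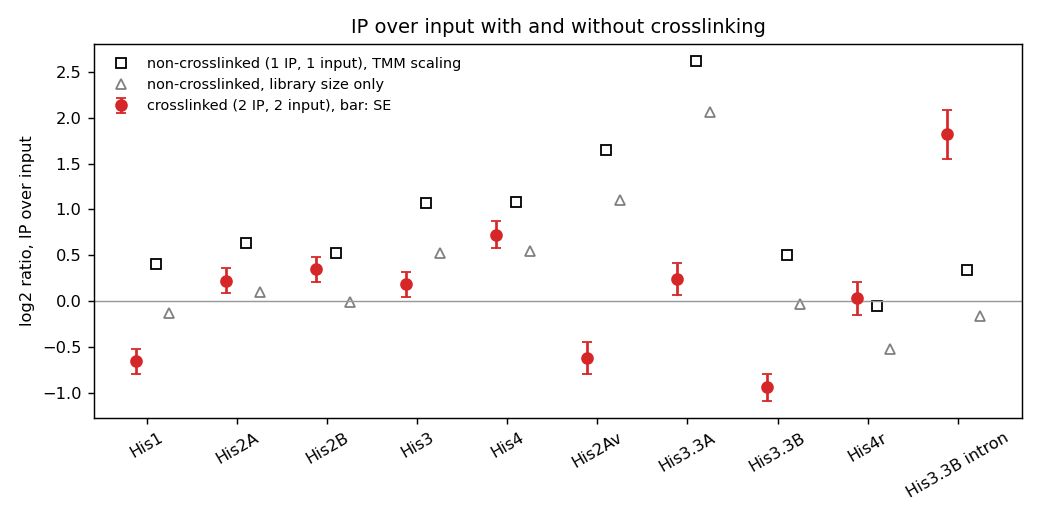
Log2 ratio of IP over input for each histone item: crosslinked libraries with the standard error of the edgeR fit (filled), and the single non-crosslinked pair with TMM scaling (squares) and with library size alone (triangles). In the crosslinked libraries His1 (-0.66), His2Av (-0.62) and His3.3B (-0.94) lie below 0 and the His3.3B intron lies at 1.82. In the non-crosslinked pair under TMM scaling all 4 lie above 0. With library size alone His1 (-0.13), His3.3B (-0.04) and the His3.3B intron (-0.17) lie below 0 and His2Av (1.10) stays above it.

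The difference between both ratios, crosslinked less non-crosslinked, was tested in 1 fit over all 6 libraries in which the lone non-crosslinked libraries were assumed to vary like the crosslinked ones. It was called higher for 6.36% and lower for 5.09% of all items with edgeR, or 545 against 436 items. With library size alone the split was 1071 higher against 151 lower, and the median of all items moved from 0.08 to 0.62. Of the histone items, His1, His2Av, His3.3A and His3.3B were called lower and none was called higher. His3.3A had -2.44 ± 0.51 (edgeR adjusted p = 0.00425) and His3.3B had -1.43 ± 0.30 (edgeR adjusted p = 0.00441). His2Av had -2.29 ± 0.60 (edgeR adjusted p = 0.0187) and His1 had -1.04 ± 0.31 (edgeR adjusted p = 0.0376).

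These calls were not stable. Under library size alone the edgeR adjusted p was 0.336 for His1, 0.0697 for His2Av and 0.0613 for His3.3B, and with DESeq2 the adjusted p was 0.253 for His1, 0.116 for His2Av and 0.0768 for His3.3A. Without crosslinked IP replicate 1 the edgeR adjusted p was 0.133 for His1, 0.0806 for His2Av and 0.0574 for His3.3B, and without replicate 2 it was 0.131, 0.0570 and 0.0700. The core types did not pass this test: His2A had -0.39 (edgeR adjusted p = 0.494), His2B -0.16 (0.820), His3 -0.87 (0.109) and His4 -0.35 (0.613). The signs of His2A, His2B and His4 turned under library size alone. His4r had 0.11 (edgeR adjusted p = 0.968) and the His3.3B intron 1.48 (edgeR adjusted p = 0.239), where 17.0% of intron items were called higher and 2.48% lower.

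Genes that act on histones or in S phase were also counted. Of 16 genes of histone mRNA processing and the histone locus body, 13 were tested, with 0 called higher and 7 lower in crosslinked IP by edgeR, and their median log2 ratio was -0.58. Of 16 histone chaperones and remodellers, 0 were higher and 7 lower, with a median of -0.54, and of 20 S-phase genes 0 were higher and 6 lower, with a median of -0.23. All exon items had 24.3% called lower and a median of -0.21. For the difference between crosslinked and non-crosslinked ratios, the 3 lists had 0 higher and 1, 3 and 3 lower. Of exon items, 1.42% were called higher and 3.62% lower by that test. The U7 snRNA, which is not an exon item, was the 1 of the first list and was among its 7 in crosslinked IP.

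In the first list the U7 snRNA, which base-pairs with histone pre-mRNA near the site of 3' end cleavage, was singled out after its values were seen. It had 94.1 and 64.4 RPM in crosslinked input, 50.0 and 46.6 RPM in crosslinked IP, and 4.72 RPM in the non-crosslinked input against 14.0 RPM in its IP. The 4 crosslinked libraries were all above the non-crosslinked pair. The log2 ratio in the crosslinked libraries was -0.75 ± 0.17 (edgeR adjusted p = 0.00158), and the difference from the non-crosslinked ratio was -2.83 ± 0.49 (edgeR adjusted p = 0.000927).

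The messenger RNA of mxc, the scaffold of the histone locus body, had 14.1 and 12.6 RPM in crosslinked input against 5.88 and 7.19 RPM in crosslinked IP, a log2 ratio of -1.08 ± 0.16 (edgeR adjusted p = 3.52e-05). It was lower in IP without crosslinking too, at 11.4 RPM in input and 4.82 RPM in IP (0.423 of the input, counting interval 0.197 to 0.826). FLASH, which acts in histone pre-mRNA cleavage, had 2.16 and 1.61 RPM in crosslinked input against 0.319 and 1.29 RPM in crosslinked IP, the former from 3 reads. Its log2 ratio was -1.36 ± 0.46 (edgeR adjusted p = 0.0250), and the call was lost without crosslinked IP replicate 1 (-0.64, edgeR adjusted p = 0.325), without crosslinked input replicate 1 (0.0654) and with DESeq2 (0.188). Without crosslinked IP replicate 2 the FLASH ratio was -2.59, and in the non-crosslinked pair it had 2.21 RPM in input and 0.438 RPM, 1 read, in IP. Among chaperones, Caf1-180, the large subunit of the replication-coupled factor CAF-1, had a log2 ratio of -0.94 ± 0.19 (edgeR adjusted p = 0.000714). The nucleolar protein gene mod also had -0.94 ± 0.15 (edgeR adjusted p = 7.36e-05). In the S-phase list, DNApol-alpha180, the catalytic subunit of DNA polymerase alpha, had -0.91 ± 0.16 (edgeR adjusted p = 0.000176), and dup, the Cdt1 licensing factor, had -0.90 ± 0.16 (edgeR adjusted p = 0.000266). In the non-crosslinked pair with TMM scaling, Caf1-180 and DNApol-alpha180 also lay below 0, at -0.28 and -0.53, while mod and dup lay above it, at 0.76 and 0.81. With library size alone, they stood at -0.81, -1.04, 0.23 and 0.28 in that order.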

How the data were processed

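For each library the authors deposited estimated counts and RPM values of annotated features, without a header. Per the submitters' processing notes, tools included bcl2fastq 2.19, STAR 2.5.2b and bedtools 2.29.0, and the builds dm6 and mm10 are named. The annotation release, the rule for sharing reads and the handling of PCR duplicates are not given in the sources used here. Estimated counts are fractional because reads were shared between features, and they were rounded to whole numbers for count tests. The deposited RPM values, which include rRNA and unannotated reads in the total, were used only in the limma alternative on log2(RPM + 1), where the log2 values were computed from the deposited RPM. The authors also deposited a table of a ratio per feature.

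The members and gene lists were chosen with earlier results of these data known. The files write replicative names with a joining sign in place of the colon, and all 111 were matched to RefSeq. Unannotated reads, 1.98% to 12.9% of a library, were left out. RPM in the results is scaled to 1000000 annotated reads. Items with a mean of at least 10 reads over the 4 crosslinked libraries were tested with edgeR 4.0.16 in R 4.3.3 (quasi-likelihood test, TMM scaling, Benjamini-Hochberg adjustment over all 8571 items, threshold 0.05). The standard error is from the fit. Alternatives used DESeq2 1.42.0, limma 3.58.1, library size alone, other filters, another total and libraries left out. The non-crosslinked pair was compared without a test, as log2 CPM at a prior count of 2. Shares have 95% Wilson intervals, on rounded reads. Intervals and floors cover counting error only. The count test was checked on simulated data whose spread between replicates was set in advance and not estimated from these libraries. That check does not show how the test behaves at the spread of these replicates. Replicates differed beyond sampling noise, with a chi-square per degree of freedom of 10.2 between crosslinked inputs and 7.63 between crosslinked IPs. Named were all histone items, the copies of highest and lowest mean, and in each list the 2 largest increases and decreases past the threshold. Lengths and coordinates are from RefSeq (Release 6 plus ISO1 MT). Sequences were not used here.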

Additional observations from a re-analysis of the deposited data

Results flagged for a closer look

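The ratio of IP to input differed between crosslinked and non-crosslinked libraries for 981 items by edgeR's test of that difference, with adjustment over all items, and 7 of them are items whose crosslinked ratio is described above. The differences on the log2 scale were -1.04 for His1, -2.29 for His2Av, -2.44 for His3.3A and -1.43 for His3.3B. They were -1.69 for mod, -1.70 for dup and -2.83 for the U7 snRNA. In the non-crosslinked pair these items stood at 0.41, 1.64, 2.62, 0.50, 0.76, 0.81 and 2.07 in the same order, each from 1 IP and 1 input library. With library size alone the calls of His1, His2Av, His3.3B, mod and dup were lost, and those of His3.3A and U7 were not. Without crosslinking the U7 snRNA had 19 input reads against 32 IP reads, a ratio of 2.97 per annotated read with a counting interval of 1.63 to 5.54. Other genes of the lists that passed the same test were Caf1-55 at -2.92, Nlp at -1.99, Mcm6 at -1.48, Mcm7 at -1.70 and piwi at 1.88.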

How the results depend on the processing

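Of the histone calls in crosslinked IP over input, those of His1, His3.3B and the His3.3B intron held under every alternative that gave a value for them. Counts of items called higher and lower, 1855 and 1620, were 1079 and 746 with DESeq2 and 844 and 897 with a minimum of 100 reads, where fewer items were tested. Leaving out 1 crosslinked library gave 1294 to 1737 higher and 999 to 1616 lower. Whether crosslinked input and IP libraries with the same number came from the same culture is not given by the labels. Their deviations had a correlation of 0.0462 over 8571 items, which does not settle it. A fit with the replicate block called 1992 higher and 1788 lower, and 4119 and 3817 of the single features. With that block His2B had an edgeR adjusted p of 0.0198, as it had 0.0114 at the higher minimum. Single features gave 2290 and 1298 with DESeq2, 844 and 822 at the higher minimum, and 5317 lower with no filter. The difference between crosslinked and non-crosslinked ratios gave 1071 higher and 151 lower with library size alone, 190 and 171 with DESeq2, 321 and 428 at the higher minimum, against 545 and 436, and 229 to 683 higher and 122 to 558 lower with 1 library left out. Under library size alone it turned to 0.16 for His2A, 0.39 for His2B, 0.20 for His4, 0.19 for mxc and 0.20 for DNApol-alpha180. It turned to -0.074 for His4r with no filter, and for FLASH it ran from -0.73 to 1.19 with 1 library left out, below 0 without crosslinked IP replicate 2. The His4r ratio in crosslinked libraries turned to -0.13 with no filter, and ran from -0.068 to 0.15 with 1 library left out. The log2 difference of the replicative to variant ratio went from 0.92 to 0.28 without His3.3B. That of the replicative share went from 0.18 to -0.072 without rRNA in the total. That of the variant share went from -0.74 to -0.99 without rRNA, -0.80 with unannotated reads in the total and -0.11 without His3.3B. With His1 left out of the total, the shares of His2A and His3 changed sign, to IP less input differences of -2.66 and -2.84 percentage points, and that of His2B was 0.080 points. The cause of these changes was not tested, beyond what each alternative leaves out. Depth limits the non-crosslinked pair most, where His2Av, His3.3A, His4r and the His3.3B intron rest on 3 to 23 reads a library.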
